A study of Mus musculus with 8 samples.

Results

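The vascular endothelial growth factor (VEGF) and angiopoietin systems were followed in mouse kidney through 10 genes, 4 encoding ligands (Vegfa, Pgf, Angpt1 and Angpt2) and 6 encoding receptors or co-receptors (Kdr, Flt1, Flt4, Nrp1, Tek and Tie1). They were taken by gene name from an array that names 36826 genes. The array carried 25 probes for them, of which 19 passed a filter that asked for a signal well above background in both mice of a group, and 9 of the 10 genes could be tested among 21264 genes in all. The exception was Flt4, the receptor of lymphatic endothelium, whose single probe (NM_008029, chr11:49465646-49465705, mm9, plus strand) did not rise well above background in any of the 8 kidneys. VEGF-A, made in the kidney by podocytes and tubule cells, binds the tyrosine kinase KDR on neighbouring endothelial cells and keeps peritubular and glomerular capillaries alive and fenestrated. FLT1 binds the same ligand more tightly and signals less, its secreted form traps ligand, and placental growth factor (Pgf) binds FLT1 and not KDR. Angiopoietin-1, from perivascular cells, activates the endothelial receptor TIE2 (Tek) and stabilises vessels, whereas angiopoietin-2, stored in endothelial cells, can oppose it, and TIE1 is a related receptor that modulates TIE2.

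The left kidneys of 8 mice were removed 24 h after surgery, with 2 mice in each of 4 groups. Mimic mice (6 and 7) received 5 nmol of a mimic of the microRNA miR-5100, complexed with polyethyleneimine nanoparticles (a cationic polymer that carries RNA into cells) at an N/P ratio of 6, in 200 µl by tail vein 2 days before the injury. Control-miRNA mice (1 and 5) received the same dose of a control miRNA in the same particles. Both groups then had the right kidney removed and the left renal vessels clamped for 45 min and reperfused, as did the uninjected IRI mice (30 and 34, ischaemia-reperfusion injury). Sham mice (1 and 4) had a midline incision without clamping or nephrectomy, so injury and loss of the other kidney cannot be told apart, and no group had particles without injury. The labels give no strain, sex or age. The mice are numbered separately in the labels, and the p-values measure the spread between these samples.

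The injected agent is the only sequence that differs between mimic and control-miRNA mice by design, and the mimic has the letters of the mature mouse miRNA in RefSeq (GRCm38.p6, chr11:60728698-60728718, plus strand). Capitals mark its seed, bases 2 to 8, and the array carried 0 probes named for it, so its level was not measured.
mmu-miR-5100: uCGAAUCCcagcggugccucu

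Levels are log2 ratios of a probe's processed signal to the 75th percentile of its array, so that 0 is a spot as bright as that percentile. Probes bind with different strength, so levels of different genes or probes were not set against each other except as a change between arrays. The percentile itself was 308 and 242 on the mimic arrays, 500 and 416 on control-miRNA arrays, 468 and 600 on IRI arrays and 408 and 476 on sham arrays, so the mimic arrays were the dimmest. The mimic pair also had the widest spread, with a median absolute difference between its 2 arrays of 0.37 over all genes, against 0.24 for control-miRNA, 0.20 for IRI and 0.16 for sham. Over 2476 RefSeq transcripts with kept probes at least 1000 bases apart, the upstream probe minus the downstream probe had a median of -1.99 and -2.05 on the mimic arrays and of -2.62 to -2.36 on the other 6. The mimic arrays therefore stood apart on 3 measures, and results against sham are given with and without them. Tubular injury markers, all 5 higher in injured kidneys, gave summed levels of 847 to 1062 times the 75th percentile on the 6 injured arrays and 55.8 to 66.6 on the sham arrays. Proximal tubule markers summed to 188 to 285 on injured and 712 to 737 on sham arrays.

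The clearest change after injury was a fall of Angpt1, followed by Tie1. In the comparison of all 6 injured kidneys with sham, 2 of the 9 measured genes were called at an adjusted p below 0.05, both lower, while 25.8% of all genes tested were called in either direction, 13.6% higher and 12.2% lower. The median log2 difference of the 9 genes was -0.53, against -0.01 over all genes tested. In the comparison of IRI alone with sham the same 2 genes were called, again lower, where 18.3% of all genes were called in either direction, 9.45% higher and 8.85% lower. There the 2 IRI values lay below both sham values in 7 of the 9 genes and above both in 1, against 38.7% and 33% of all genes. In whole-kidney RNA, fewer endothelial or perivascular cells and less RNA per cell cannot be told apart.

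**Figure D1:**
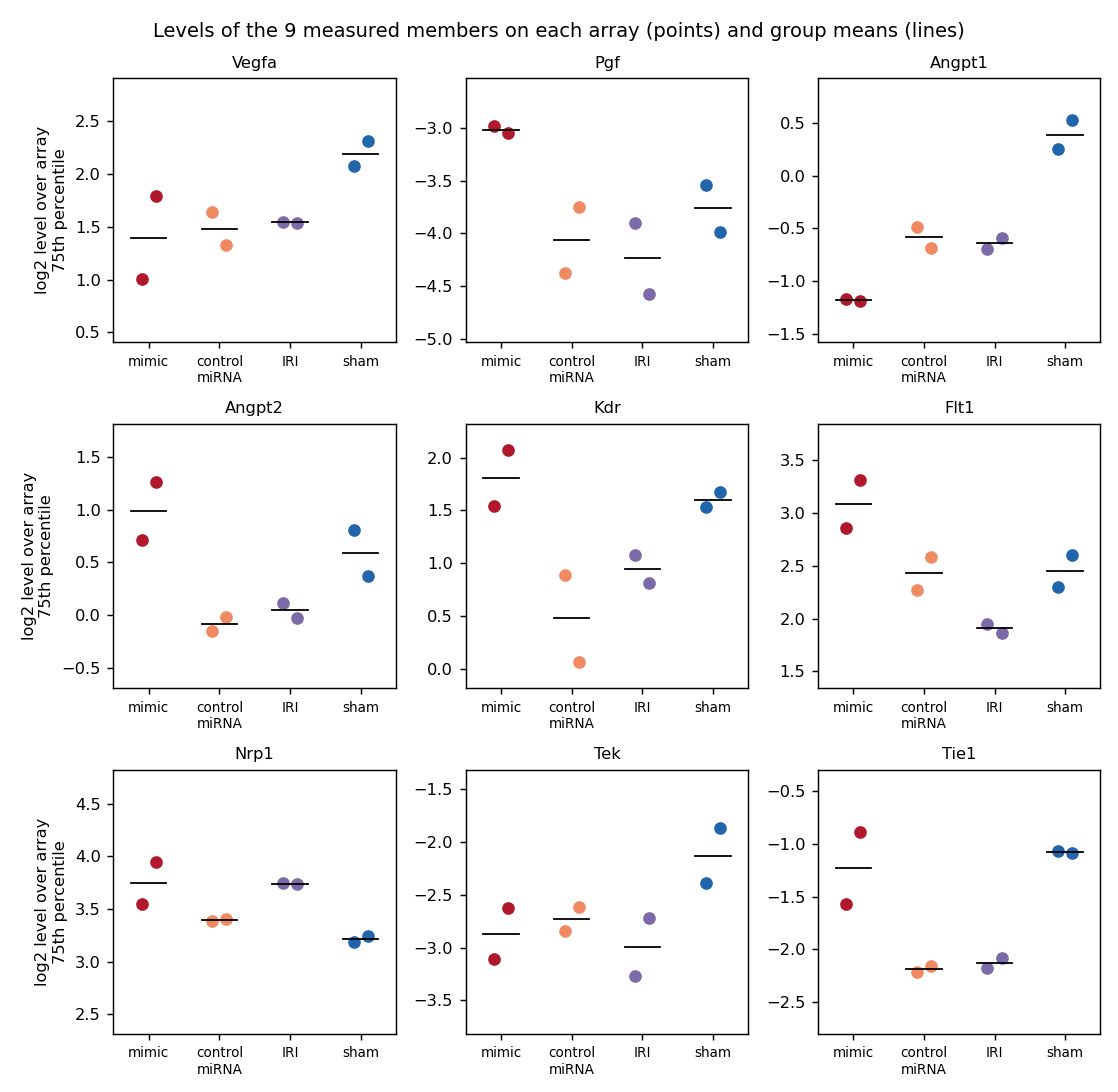
Log2 level over the array's 75th percentile (y axis) of the 9 measured genes on every array (points, 2 mice per group) with group means (lines), each panel spanning 2.5 log2 units. Angpt1 sat at -0.48 or below on all 6 injured arrays and at 0.25 and 0.53 in sham, while the mimic points lay highest for Pgf and Flt1.

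Angpt1 was measured by probe A_66_P118301 (NM_009640, chr15:42256343-42256402, mm9, minus strand). Its levels were -1.17 and -1.18 in mimic, -0.48 and -0.69 in control-miRNA, -0.70 and -0.59 in IRI and 0.25 and 0.53 in sham kidneys. Every injured kidney lay below both sham kidneys, with the mimic pair lowest. Injured kidneys were lower by a log2 difference of -1.19 ± 0.14 (SE), 0.438 times the sham level (limma, adjusted p = 0.0022). IRI alone against sham gave -1.03 ± 0.17 (adjusted p = 0.011), and IRI and control-miRNA kidneys against sham, with both mimic arrays left out, gave -1.002 ± 0.14 (adjusted p = 0.0055). The fall in injured kidneys held under all 16 alternatives run, with adjusted p from 0.00061 to 0.040. Mimic kidneys were lower still than control-miRNA kidneys (-0.59 ± 0.17) and IRI kidneys (-0.54 ± 0.17), neither of which passed the test (adjusted p = 0.078 and 0.070).

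Tie1 was read by a single probe near the end of the transcript (NM_011587, from base 3483, chr4:118144132-118144191, mm9, minus strand), printed here because the TIE receptor result rests on it alone.
A_51_P177171: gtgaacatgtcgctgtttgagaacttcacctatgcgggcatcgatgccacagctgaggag
Tie1 levels were -1.57 and -0.89 in mimic, -2.22 and -2.16 in control-miRNA, -2.18 and -2.09 in IRI and -1.07 and -1.09 in sham kidneys. The 4 injured kidneys without the mimic lay more than 0.9 below sham, whereas the mimic pair straddled sham. The difference was -0.77 ± 0.19 for all injured kidneys (0.586 times, adjusted p = 0.028), -1.05 ± 0.24 for IRI alone (adjusted p = 0.026) and -1.08 ± 0.11 with both mimic arrays left out (0.473 times, adjusted p = 0.0023). The processed signals before scaling were 104 and 131 in mimic, 108 and 93.4 in control-miRNA, 103 and 141 in IRI and 194 and 224 in sham kidneys, so that all 6 injured arrays were below sham on that scale. Leaving out either sham, either IRI or either control-miRNA array ended the call for all injured kidneys (adjusted p = 0.0503 to 0.17), and leaving out any of the 4 arrays ended both calls of IRI against sham (Angpt1, adjusted p = 0.054 to 0.091, and Tie1, adjusted p = 0.11 to 0.14).

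Tek, the TIE2 receptor itself (A_51_P130374, NM_013690, chr4:94540861-94540919, mm9, plus strand), had levels of -3.11 and -2.62 in mimic, -2.85 and -2.61 in control-miRNA, -3.27 and -2.72 in IRI and -2.39 and -1.87 in sham kidneys. All 6 injured values lay below both sham values, as for Angpt1 and Vegfa, but the sham pair differed by 0.52. The difference of -0.74 ± 0.24 for injured kidneys did not pass the test (adjusted p = 0.061), nor did it without the mimic arrays (-0.73 ± 0.23, adjusted p = 0.058). Values that did not overlap between injured and sham kidneys were found in 3 of the 9 genes in the lower direction and in 1 in the higher, against 17.7% and 17.9% of all genes.

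Angpt2, read by probe A_55_P2503142 (NM_007426, chr8:18690323-18690382, mm9, minus strand), had levels of 0.71 and 1.27 in mimic, -0.15 and -0.02 in control-miRNA, 0.12 and -0.02 in IRI and 0.80 and 0.37 in sham kidneys. The 4 injured kidneys without the mimic lay below both sham kidneys, and of the mimic values 1 lay inside the sham range and 1 above it. Over all injured kidneys the difference was -0.27 ± 0.20 (adjusted p = 0.37). With both mimic arrays left out it was -0.61 ± 0.16 (0.657 times, adjusted p = 0.036). A second Angpt2 probe (A_55_P2892835) was not well above background.

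The difference between the antagonist and agonist of TIE2 was taken within each array as the Angpt2 level minus the Angpt1 level, which is free of the array's scaling. It was 1.89 and 2.45 in mimic, 0.34 and 0.67 in control-miRNA, 0.81 and 0.56 in IRI and 0.55 and -0.15 in sham kidneys. The mimic pair was highest, control-miRNA kidneys overlapped sham, and IRI kidneys lay just above both sham values. Injured kidneys averaged 1.12 and sham kidneys 0.20, a difference of 0.92 (exact two-sided permutation test over arrays, p = 0.143, where the smallest p this design allows is 0.0714). Without both mimic arrays the difference was 0.40.

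**Figure D2:**
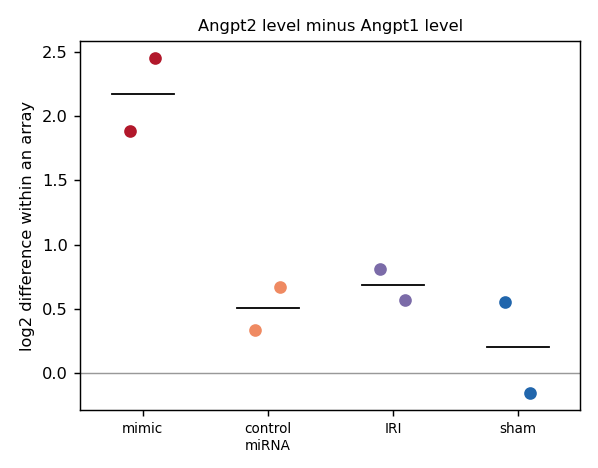
Angpt2 level minus Angpt1 level within each array (y axis, log2) for the 2 mice of each group (points) with group means (lines). Both mimic points lie above 1.8, and the other 6 arrays lie between -0.15 and 0.81.

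Of the VEGF ligands and receptors among the 9 genes (Vegfa, Pgf, Kdr, Flt1 and Nrp1), none passed the test against sham when all 6 injured kidneys were used, and at its brightest probe Vegfa lay below sham in each of them. The Vegfa probe with the highest mean (A_52_P638895, NM_001025250, from base 3026, chr17:46154387-46154446, mm9, minus strand) gave 1.01 and 1.79 in mimic, 1.64 and 1.33 in control-miRNA, 1.55 and 1.53 in IRI and 2.08 and 2.31 in sham kidneys. All 6 injured kidneys lay below both sham kidneys, and the difference of -0.72 ± 0.23 (0.607 times) fell just short of the threshold (adjusted p = 0.057). With both mimic arrays left out Vegfa fell by 0.68 on the log2 scale (± 0.14 SE, 0.623 times, adjusted p = 0.019).

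Kdr, the main signalling receptor of VEGF-A (A_51_P316553, NM_010612, chr5:76329309-76329368, mm9, minus strand), had levels of 1.54 and 2.07 in mimic, 0.89 and 0.07 in control-miRNA, 1.08 and 0.81 in IRI and 1.54 and 1.67 in sham kidneys. Control-miRNA and IRI kidneys were below sham, and the mimic pair reached or passed it. The injured difference was -0.53 ± 0.25 (adjusted p = 0.18) with the mimic arrays and -0.89 ± 0.25 (0.538 times, adjusted p = 0.042) without them. Both other Kdr probes were not well above background.

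Nrp1, the co-receptor that presents VEGF-A to KDR, stood against this direction. Its brightest probe (A_55_P2830615, NM_008737, chr8:131027137-131027196, mm9, plus strand) gave 3.55 and 3.95 in mimic, 3.39 and 3.40 in control-miRNA, 3.75 and 3.73 in IRI and 3.19 and 3.24 in sham kidneys. Each injured kidney lay above both sham kidneys, by a difference of 0.41 ± 0.15 (1.33 times, adjusted p = 0.084) over all injured kidneys and of 0.35 ± 0.10 (1.28 times, adjusted p = 0.048) without the mimic arrays. Of its 6 kept probes, 5 were higher and 1 lower in injured kidneys, and none passed the test over the 32216 kept probes, of which 23% were called. The probe from base 1795 of the same transcript (A_52_P371237) was higher in IRI than in sham kidneys by 0.89 ± 0.17 (adjusted p over probes 0.018, with 15.2% of probes called), and lower in mimic than in IRI kidneys by -0.75 ± 0.17 (adjusted p over probes 0.036, with 20.1% of probes called). The other kept probes did not share that fall. Their mimic minus IRI differences ran from -0.19 ± 0.35 (A_52_P174942) to 1.04 ± 0.39 (A_55_P2738087, adjusted p over probes 0.091), and none was called. Mimic minus control-miRNA differences ran from -0.27 ± 0.17 at A_52_P371237 to 1.69 ± 0.39 at A_55_P2738087 (adjusted p over probes 0.060).

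With both mimic arrays left out, 5 of the 9 genes were called lower (Angpt1, Tie1, Angpt2, Vegfa and Kdr) and 1 higher (Nrp1), where 34.1% of all genes tested were called in either direction, 16.7% lower and 17.4% higher. That fit was chosen after seeing the data. Flt1 and Pgf did not pass it, with differences of -0.28 ± 0.15 and -0.39 ± 0.29.

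Between mimic and control-miRNA kidneys none of the 9 genes was called, and 0% of all 21264 genes were called, although 7188 genes, 6 of the 9 among them, had an unadjusted p below 0.05. The called genes among the 9 and among all genes numbered 4 and 5833 with normexp background correction and 5 and 6318 without mimic 6, and 0 and 0 under each of the other 9 alternatives. The median log2 difference of the 9 was 0.66, against 0.07 over all genes. The mimic values did not overlap the control-miRNA values in 6 genes that were higher and 1 that was lower, against 33.1% and 26.1% of all genes. The 4 differences with the smallest p-values were those of Angpt2 (1.07 ± 0.24, 2.10 times, adjusted p = 0.066), Kdr (1.33 ± 0.31, 2.51 times, adjusted p = 0.066), Tie1 (0.96 ± 0.24, 1.94 times, adjusted p = 0.068) and Angpt1 (-0.59 ± 0.17, 0.662 times, adjusted p = 0.078).

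Against IRI kidneys, which had no injection, mimic kidneys were called higher in 4 of the 9 genes and lower in none. Of all genes tested, 16% were called in either direction, 10.5% higher and 5.53% lower. These were Pgf (1.22 ± 0.31, 2.33 times, adjusted p = 0.046), Flt1 (1.18 ± 0.22, 2.27 times, adjusted p = 0.039), Angpt2 (0.94 ± 0.24, 1.92 times, adjusted p = 0.047) and Tie1 (0.91 ± 0.24, 1.87 times, adjusted p = 0.048). Kdr had a difference of 0.86 ± 0.31 that did not pass (adjusted p = 0.090), and Vegfa, Nrp1 and Tek, at the probes that stood for them, lay within 0.15 of IRI. The mimic values lay above both IRI values in 5 of the 9 genes and below both in 1, against 38.3% and 29% of all genes. Under quantile normalization and in the deposited table the call of Flt1 alone remained. All 4 calls were lost with the array's 75th percentile as a covariate, with the 2 groups fitted alone, or without IRI 30, IRI 34 or mimic 7, and without mimic 6 that of Pgf was lost. With the percentile as a covariate the differences were -0.03 for Angpt2, -0.04 for Pgf, 0.65 for Flt1 and 0.32 for Tie1, and those of Flt1 and Tie1 stayed positive under all 11 alternatives run. The brightness of the array moved with the group, and its part in these results was not tested beyond that fit.

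Processed signals before scaling put these calls beside the brightness of the arrays. For Angpt2 they were 506 and 581 in mimic, 452 and 412 in control-miRNA, 508 and 590 in IRI and 712 and 616 in sham kidneys. For Flt1 they were 2228 and 2408 in mimic, 2412 and 2497 in control-miRNA, 1803 and 2188 in IRI and 2010 and 2883 in sham kidneys. Mimic and IRI signals overlapped before scaling for Angpt2, Tie1 and Pgf, and did not overlap after division by the 75th percentile, which was lowest on the mimic arrays. The part of the arrays' brightness in this was not tested beyond the covariate fit above.

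**Figure D3:**
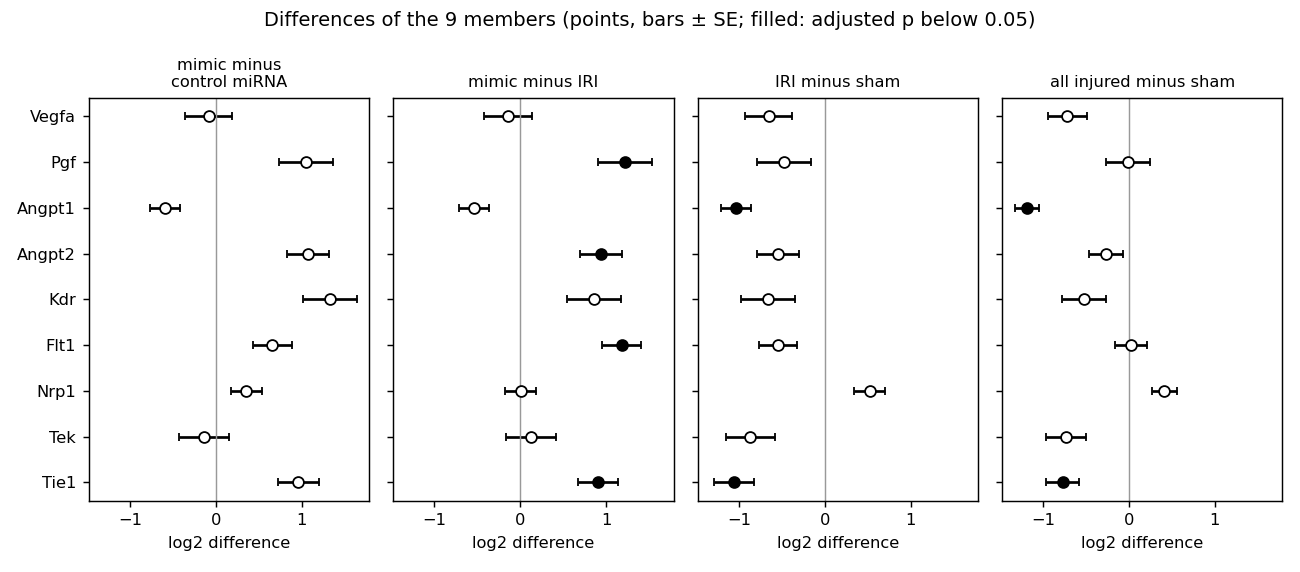
Log2 differences (x axis, points, with bars of ± 1 SE) of the 9 measured genes in 4 comparisons, filled where the adjusted p over 21264 genes is below 0.05. Angpt1 and Tie1 are filled and negative against sham, 4 genes are filled and positive in mimic minus IRI, and none is filled in mimic minus control miRNA.

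Control-miRNA kidneys set against IRI kidneys show the injection without the mimic. None of the 9 genes was called, nor any of all genes (0%, with 870 at an unadjusted p below 0.05, 0 of the 9 among them), and the median difference of the 9 was -0.05. The 2 groups did not overlap in 1 gene that was higher (Flt1) and 1 that was lower (Nrp1), against 17.6% and 15% of all genes. Flt1 was the gene with the most positive difference, 0.52 ± 0.22 (adjusted p = 1.00).

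Flt1 levels at its full-length probe (A_51_P398723, NM_010228, from base 6201, chr5:148373791-148373850, mm9, minus strand) were 2.85 and 3.32 in mimic, 2.27 and 2.58 in control-miRNA, 1.94 and 1.87 in IRI and 2.30 and 2.60 in sham kidneys. IRI kidneys were lowest, control-miRNA kidneys overlapped sham and the mimic pair was highest. The array also carried 2 kept probes on a different Flt1 transcript of the Ensembl annotation (ENSMUST00000110529), at chr5:148448888-148448947 and chr5:148450688-148450747, upstream of the full-length probe on the minus strand. Between mimic and control-miRNA kidneys these 2 probes differed by 0.04 ± 0.27 and -0.13 ± 0.21, beside 0.66 ± 0.22 at the full-length probe. Against IRI they were higher in mimic kidneys by 0.82 ± 0.27 and 0.67 ± 0.21 (adjusted p over probes 0.065 and 0.061) and in control-miRNA kidneys by 0.78 ± 0.27 and 0.81 ± 0.21 (adjusted p over probes 1.00 and 0.91). At both of them the mimic values overlapped the control-miRNA values. Whether this transcript encodes the secreted form of FLT1 was not tested.

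Pgf was close to the lower end of what the array could measure (A_51_P318381, NM_008827, chr12:86508335-86510337, mm9, minus strand). Its levels were -2.99 and -3.05 in mimic, -4.38 and -3.75 in control-miRNA, -3.90 and -4.58 in IRI and -3.54 and -3.98 in sham kidneys, and its mean lay at the 12.6th percentile of the genes tested. The processed signals ran from 24.1 to 38.9 over the 8 arrays.

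Vegfa gave a different answer in mimic kidneys depending on where along the transcript it was read. Of its 4 probes, 3 are described, which lie from 5′ to 3′ at chr17:46159226-46159282, chr17:46155512-46155571 and chr17:46154387-46154446 (mm9, minus strand). The first of them (A_55_P2741794, from base 1455 of NM_001025250) lies in a basic stretch that only the longest VEGF-A isoforms hold. It is printed because the mimic values stood apart there. The 3 probes do not show how far along the transcript that difference extends.
A_55_P2741794: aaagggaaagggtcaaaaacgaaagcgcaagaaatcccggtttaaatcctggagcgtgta

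Probe A_55_P2741794 gave 0.29 and 0.81 in mimic, -1.96 and -0.97 in control-miRNA, -0.70 and -1.91 in IRI and -0.80 and -0.91 in sham kidneys. Each mimic value was above all 6 others. Mimic kidneys exceeded IRI kidneys there by 1.86 ± 0.47 (adjusted p over probes 0.041, with 20.1% of probes called) and control-miRNA kidneys by 2.01 ± 0.47 (adjusted p over probes 0.061, with 0% of probes called). The call against IRI was lost without IRI 30, IRI 34 or mimic 7 (adjusted p over probes 0.060 to 0.23, still positive), and with the 75th percentile as a covariate the difference turned to -0.49. The 2 probes nearer the 3′ end gave mimic minus control-miRNA differences of 0.19 ± 0.25 (A_51_P482552) and -0.09 ± 0.28 (A_52_P638895). Averaging all 4 probes turned the gene's difference from control-miRNA to 0.85, from -0.09 at the probe that stood for it, and that from IRI to 0.74, from -0.14. Between IRI and sham kidneys the 3 probes pointed the same way, with differences from -0.65 to -0.45.

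Within each array, probe A_55_P2741794 minus the 3′-most probe was -0.72 and -0.98 in mimic, -3.60 and -2.29 in control-miRNA, -2.25 and -3.45 in IRI and -2.88 and -3.22 in sham kidneys, a difference that scaling cannot change. Signals before scaling were 376 and 424 in mimic against 129 and 213 in control-miRNA kidneys at probe A_55_P2741794, and 619 and 836 in mimic against 1562 and 1044 in control-miRNA kidneys at the 3′-most probe. Other transcripts moved the same way. Over the 2476 transcripts described above, the upstream minus downstream difference was higher in mimic than in control-miRNA kidneys by a median of 0.37 (quartiles -0.12 and 0.85), and 1.45% of them equalled or exceeded the 2.10 of Vegfa. Between control-miRNA and IRI kidneys that median was -0.02, and between IRI and sham -0.04. The part of this shift in the Vegfa result was not tested.

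**Figure D4:**
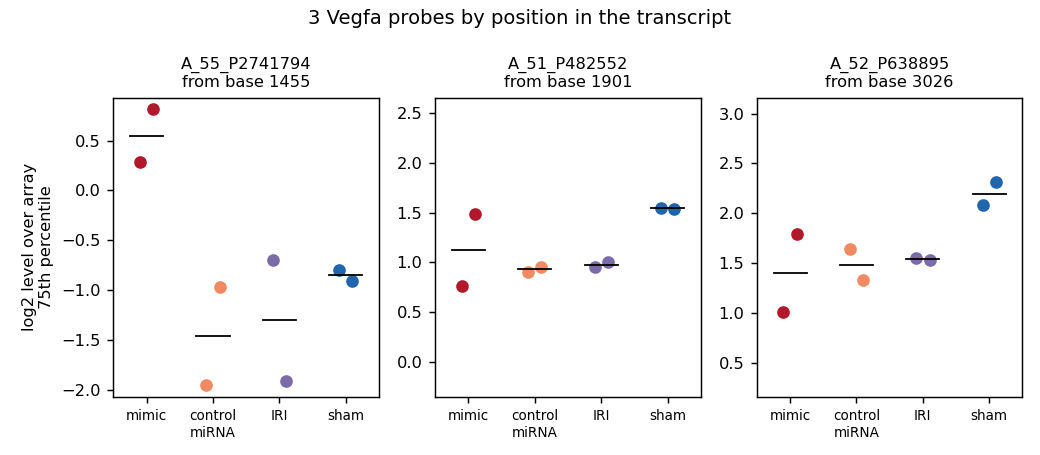
Log2 level over the array's 75th percentile (y axis) at 3 Vegfa probes, ordered from 5′ (left) to 3′ (right) by the first base in the transcript, on every array (points) with group means (lines). The upstream panel has both mimic points above all others, and the 2 downstream panels have sham highest.

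Other genes of the 2 systems were read from lists of ligands, co-receptors and pathway genes. Their counts stand beside 13.6% of all genes called higher and 12.2% called lower in injured than in sham kidneys. Of the 7 measured genes among the other VEGF ligands, co-receptors and semaphorins, 2 were higher and 1 lower in injured than in sham kidneys, with a median log2 difference of -0.47 against -0.01 over all genes. Nrp2, the sister co-receptor that binds VEGF-C and semaphorin 3F, rose most, with levels of 4.97 and 4.18 in mimic, 6.02 and 5.56 in control-miRNA, 6.08 and 6.12 in IRI and 4.04 and 4.35 in sham kidneys. It was higher in injured kidneys by 1.29 ± 0.24 (adjusted p = 0.011) and lower in mimic than in IRI kidneys by -1.52 ± 0.30 (adjusted p = 0.039). Control-miRNA and IRI kidneys were thus well above sham, and the mimic pair overlapped it. Sema3f, a ligand of NRP2, was higher in injured kidneys by 1.06 ± 0.16 (adjusted p = 0.0045), and Vegfb, a ligand of FLT1, was lower by -0.66 ± 0.14 (adjusted p = 0.016). Plxnd1, a semaphorin receptor of endothelium, was lower in IRI than in sham kidneys (-1.02 ± 0.19, adjusted p = 0.014) and higher in mimic than in IRI kidneys (1.43 ± 0.19, adjusted p = 0.039).

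Among 8 further genes of the angiopoietin and TIE system, 2 were higher and 2 lower in injured kidneys (median log2 difference -0.29), against 13.6% and 12.2% of all genes. The higher ones were Itgb1 (0.88 ± 0.14, adjusted p = 0.0066), the β1 integrin chain that binds angiopoietins, and Tnip2 (0.92 ± 0.16, adjusted p = 0.0081), an inhibitor of NF-κB signalling. Dok2, an adaptor of the receptor, was lower (-0.91 ± 0.24, adjusted p = 0.035). Ptprb, the phosphatase that switches TIE2 off, was lower in injured kidneys (-0.78 ± 0.22, adjusted p = 0.042) and lower in IRI kidneys (-1.29 ± 0.27, adjusted p = 0.022), and higher in mimic than in IRI kidneys (1.21 ± 0.27, adjusted p = 0.039). Svep1, a matrix protein that binds TIE1, was also higher in mimic than in IRI kidneys (1.39 ± 0.30, adjusted p = 0.039).

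Of 9 oxygen-sensing regulators, 2 were higher and 1 lower in injured kidneys (median -0.22). For this list and the next 2, the shares of all genes were 13.6% higher and 12.2% lower. Hif1a, which drives VEGF-A in hypoxia, was higher by 0.52 ± 0.13 (adjusted p = 0.030), and Egln1, the prolyl hydroxylase that marks HIF-α for degradation, was lower by -0.74 ± 0.14 (adjusted p = 0.010). Hif3a was higher by 1.37 ± 0.37 (adjusted p = 0.037), with the control-miRNA pair highest. Its levels were -2.18 and -2.52 in mimic, -0.72 and -1.03 in control-miRNA, -2.11 and -3.66 in IRI and -3.34 and -3.47 in sham kidneys. IRI alone against sham gave 0.52 ± 0.46 for Hif3a (adjusted p = 0.46). Of 16 measured VEGF-responsive and tip cell genes, 4 were higher and 1 lower (median 0.15), with Nr4a1 (1.77 ± 0.21, adjusted p = 0.0022) and Rcan1 (1.46 ± 0.20, adjusted p = 0.0037) higher and Dll4 (-0.80 ± 0.18, adjusted p = 0.020), the Notch ligand of tip cells, lower. Dll4 levels were -4.56 and -4.92 in mimic, -4.79 and -4.69 in control-miRNA, -4.90 and -4.42 in IRI and -3.98 and -3.84 in sham kidneys. The lowest levels well above background were -4.22 and -3.92 on mimic, -4.74 and -4.66 on control-miRNA arrays and -4.84 on IRI 30. Dll4 thus passed the background filter through the sham pair alone, and the size of its fall was not well measured. Nr4a1 and Rcan1 also respond to many stimuli other than VEGF. Of 20 genes of VEGF receptor signalling, 7 were higher and 1 lower (median 0.23), led by Akt1 (0.92 ± 0.14, adjusted p = 0.0048) and Pik3r1 (1.13 ± 0.24, adjusted p = 0.015), which are expressed in most cells. Over these 5 lists, 0 genes were called between mimic and control-miRNA kidneys, as over all genes (0%). Between mimic and IRI kidneys 6 were higher and 4 lower, where 10.5% and 5.53% of all genes were.

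Endothelial markers other than the genes above moved beside them. Of 18 such markers, 3 were called lower in injured than in sham kidneys, where 12.2% of all genes were. These were Icam2 (-0.68 ± 0.14), Erg (-0.87 ± 0.20) and Ptprb, which is also among the angiopoietin and TIE genes. All 18 differences between mimic and control-miRNA kidneys were positive, with a median of 0.85 and 0 called. In mimic against IRI kidneys 9 of the 18 were called higher, where 10.5% of all genes were, and the median was 0.86. The 2 medians of the 9 VEGF and angiopoietin genes were 0.66 and 0.86. The 18 markers summed to 59.7 to 74.2 times the 75th percentile on mimic, 34.1 to 38.8 on control-miRNA, 34.0 to 37.1 on IRI and 50.5 to 58.1 on sham arrays. The group means of Kdr, Flt1, Pgf and Angpt2 were likewise highest in mimic and next highest in sham kidneys. Those of Tie1 (-1.08 in sham, -1.23 in mimic) and Tek (-2.13 in sham, -2.87 in mimic) were highest in sham kidneys. That of Nrp1 was highest in mimic and lowest in sham kidneys. Those of Angpt1 and, at the probe that stood for it, Vegfa were highest in sham and lowest in mimic kidneys. Pericyte and mesangial markers summed to 34.5 to 52.8 on mimic, 18.3 to 30.1 on control-miRNA, 18.6 to 20.7 on IRI and 18.2 to 20.4 on sham arrays. The largest term of that sum on the mimic arrays was Acta2. Its log2 levels were 5.23 and 3.96 in mimic, 4.09 and 2.74 in control-miRNA, 3.31 and 3.08 in IRI and 2.20 and 2.51 in sham kidneys. All 9 differences between mimic and IRI kidneys were positive, with a median of 0.59, and 2 of the 9 were called (Pdgfrb and Notch3). Against sham the 9 were split, with 4 differences positive and a median of -0.09. Of the 9, 2 were called lower in injured kidneys, where 12.2% of all genes were. They were Kcnj8 (-1.91 ± 0.28, adjusted p = 0.0044) and Itga8 (-1.53 ± 0.43, adjusted p = 0.042). Pdgfrb (0.51 ± 0.15, adjusted p = 0.0503) and Acta2 (1.38 ± 0.43, adjusted p = 0.058), also in that sum, had positive differences that did not pass the test. Podocyte markers, from cells that make VEGF-A, had 0 of 8 called in any of these comparisons, with sums of 18.2 to 35.6 on mimic, 4.53 to 29.6 on control-miRNA, 11.7 to 12.3 on IRI and 20.3 to 25.7 on sham arrays. Lymphatic markers, with 3 of 4 measured, summed to 3.18 to 5.93 on mimic, 2.19 to 4.00 on control-miRNA, 2.97 to 4.78 on IRI and 2.42 to 3.04 on sham arrays. Within that sum Prox1 was lower in injured kidneys (-1.69 ± 0.29, adjusted p = 0.0079), while Ccl21a (-1.57 ± 0.51, adjusted p = 0.062) and Pdpn (0.93 ± 0.35, adjusted p = 0.10) did not pass the test. The part of a changed number of any of these cells was not tested.

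The genes whose mean-centred levels over the 8 arrays lay nearest to each gene were found among 8285 genes spanning at least 1 log2 unit, which left out Nrp1. For Flt1 these were Nexmif, Robo4, an endothelial guidance receptor, and Nfix, at root mean square distances of 0.11, 0.12 and 0.12. Ipp, Kcnj2 and Slc26a2 lay nearest to Vegfa (0.078 to 0.10), and Itga4, Camk1g and Ehd3 nearest to Kdr (0.18 to 0.20). Cabcoco1, Ankib1 and Mcur1 lay nearest to Angpt1 (0.077 to 0.10), Hoxa9, Airn and Olfr531 to Angpt2 (0.068 to 0.10), Copz2, Il1f5 and Emid1 to Tie1 (0.10 to 0.11), Rab40b, Zfp84 and Patj to Tek (0.15), and Prkce, Olfr1513 and Rab7 to Pgf (0.080 to 0.089). With 8 arrays these distances describe the arrays only.

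Since Tie1 and Tek were both below sham on most injured arrays, the 250 bases before their starts in RefSeq (GRCm38.p6) were searched for GGAA and its reverse complement TTCC, the core bound by ETS factors such as ERG, shown in capitals. The Tie1 window (chr4:118489850-118490099, minus strand) and the Tek window (chr4:94739039-94739288, plus strand) follow.
Tie1 promoter: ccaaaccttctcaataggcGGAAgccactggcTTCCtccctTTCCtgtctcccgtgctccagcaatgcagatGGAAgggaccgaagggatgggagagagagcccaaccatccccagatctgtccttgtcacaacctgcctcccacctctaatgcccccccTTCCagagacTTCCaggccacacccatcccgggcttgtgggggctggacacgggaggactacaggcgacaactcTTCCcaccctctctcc
Tek promoter: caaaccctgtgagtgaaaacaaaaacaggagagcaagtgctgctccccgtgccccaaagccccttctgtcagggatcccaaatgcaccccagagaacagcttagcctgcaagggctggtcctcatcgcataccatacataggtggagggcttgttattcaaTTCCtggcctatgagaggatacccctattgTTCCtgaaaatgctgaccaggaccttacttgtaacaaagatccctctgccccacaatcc

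The Tie1 window held 7 such cores, a number that 3.82% of all 32851 windows of this length reach or pass, and the Tek window held 2, which 76.8% reach or pass. The windows of Kdr, Flt1 and Nrp1 held 4 each (33.4%), the 2 windows of Vegfa held 6 (8.69%) and 2, that of Flt4 held 2, and both windows of Pgf held 0. Of the 10 genes, 8 had a window in the table.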

How the data were processed

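Total RNA from 30 mg of kidney was labelled with Cy3 from 50 ng per array and read in 1 colour, per the labels' protocols. Images were quantified in Agilent Feature Extraction (version 12.0.3.1), according to the submitters' processing notes. Its processed signal, per the file headers, is an intensity from which background was subtracted within the array, without scaling across arrays. The raw intensity, local background and quality flags (0 or 1) of each spot stand beside it, per the file headers. A deposited table of the series gives 1 linear ratio for each probe, and its scaling and centring are not given in the sources used here. Its medians were 0.992 to 1.02 over the arrays, and it served only as an alternative. Flags, gene names and probe positions (mm9) are those of the deposited files, and names were updated through RefSeq (GRCm38): of 56605 probes, 33767 by accession, 9866 by current symbol and 310 by synonym, with 12662 kept as given.

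Control spots and outlier-flagged spots (79 to 127 per array) were left out, and 0 were saturated. Signals were divided by the 75th percentile of their array, taken to log2 and averaged per probe. Probes that were well above background in both mice of any group were kept (32216), and the one with the highest mean stood for its gene. limma 3.58.1 (lmFit, eBayes) in R 4.3.3 fitted a mean per group over 8 arrays (6.84 moderated degrees of freedom), with Benjamini-Hochberg adjustment over 21264 genes, or over kept probes where stated, and a threshold of 0.05. Errors of differences are moderated standard errors. The number of arrays limits the precision. All arrays shared 1 slide and 1 scan, and slide row cannot be told apart from injection.

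The genes and lists were chosen with earlier results of these data known. All 10 genes are described, some of their further probes by count only, and one Vegfa probe is not reported here. From each list up to 3 genes with the smallest p per comparison are named, and for genes spanning at least 1 log2 unit the 3 nearest by root mean square distance. Alternatives were normexp background correction (offset 50), quantile normalization, no filter on dim probes, the mean of a gene's probes, the deposited table, the array's 75th percentile (log2) as a covariate, the compared groups alone, and each array left out. Fits of single Vegfa and Flt1 probes, without both mimic arrays, and of probe pairs were chosen after seeing the data. The fit was tested on simulated data. Unused value columns numbered 0.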

Additional observations from a re-analysis of the deposited data

How the results depend on the processing

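Angpt1 against sham kept its direction and its call in all injured kidneys under every alternative run, as did the direction of Tie1. In control miRNA against IRI 0 genes were called under all 11 alternatives. No paired analysis was possible because the groups compared share fewer than 2 replicate numbers. The cause of the changes below was not tested, except that settings leaving out arrays or groups have fewer residual degrees of freedom, and that the array's 75th percentile is lowest in the mimic group, so that its covariate rests on differences within groups.

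With the 75th percentile as a covariate, 1 of the 9 genes and 1857 of all genes were called in IRI against sham, and 0 and 0 in mimic against IRI. The signs turned for Angpt2 (-0.026), Nrp1 (-0.35) and Pgf (-0.037) in mimic against IRI, Flt1 (-0.047) in injured against sham, Pgf (-0.11) in control miRNA against IRI and Tek (0.019) in mimic against control miRNA. Among single probes they turned in mimic against IRI for Vegfa A_51_P482552 (-0.50) and A_55_P2741794 (-0.49), and in mimic against control miRNA for A_51_P482552 (-0.30) and Flt1 A_55_P2800423 (-0.43).

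With both mimic arrays left out, 6 of the 9 genes were called in injured against sham and Flt1 was at -0.28. The deposited table and quantile normalization each called 1 of the 9 in mimic against IRI, with Tek at -0.25 in both, and quantile normalization called 2227 genes there. The mean of a gene's probes gave 0.00 for Flt1 in injured against sham (-0.0012), and for Vegfa 0.74 in mimic against IRI and 0.85 in mimic against control miRNA. Without the filter on dim probes 1 of the 10 genes was called in IRI against sham (2450 of all genes) and 1 in injured against sham, and 11947 genes were called in mimic against IRI.

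Normexp correction called 4 of the 9 genes and 5833 of all genes in mimic against control miRNA, 10343 genes in mimic against IRI and 4 of the 9 in injured against sham. Under it the signs turned for Nrp1 in mimic against IRI (-0.081), Pgf in injured against sham (0.067), Tek in mimic against control miRNA (0.21), Tie1 in control miRNA against IRI (0.020) and Flt1 probe A_55_P2735980 in mimic against control miRNA (0.15). The compared groups alone called 5 of the 9 and 6785 genes in IRI against sham, 1 of the 9 and 3603 genes in injured against sham, and 0 of the 9 and 0 genes in mimic against IRI.

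Leaving out 1 array at a time, the called genes among the 9 ranged from 1 to 5 in injured against sham (1307 to 7269 of all genes, lowest without a sham array), 0 to 0 in IRI against sham (801 to 1078), 0 to 5 in mimic against control miRNA (0 to 6318, the highest without mimic 6) and 0 to 3 in mimic against IRI (0 to 7545). Uncalled log2 differences that crossed 0 ranged in injured against sham from -0.13 to 0.17 for Flt1 and -0.23 to 0.21 for Pgf. In control miRNA against IRI the ranges were -0.044 to 0.16 for Angpt1, -0.16 to 0.51 for Pgf, -0.0100 to 0.54 for Tek and -0.22 to 0.10 for Vegfa. In mimic against control miRNA they were -0.38 to 0.11 for Tek, -0.48 to 0.31 for Vegfa and its probe A_52_P638895, -0.17 to 0.56 for probe A_51_P482552, -0.34 to 0.072 for Flt1 probe A_55_P2735980 and -0.27 to 0.35 for A_55_P2800423. In mimic against IRI they were -0.19 to 0.21 for Nrp1, -0.15 to 0.40 for Tek, -0.54 to 0.25 for Vegfa and A_52_P638895, and -0.22 to 0.51 for A_51_P482552.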
